A study of Drosophila melanogaster with 8 samples.

Results

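A set of 268 protein-coding genes on the X chromosome of Drosophila melanogaster was described, taken from 956 genes that the authors listed as enriched in RNA immunoprecipitates of the proteins SXL or SSX. The set was chosen by measured values. Its genes had a deposited log2 fold change over the GFP control above 2 with an adjusted p under 0.001 in at least 1 comparison, a normalized count averaging 100 or more over the 7 libraries, and at least 1 read in the GFP libraries. Of 309 X-linked coding genes on the lists, 278 passed both count filters, and 10 of these were left out by name. The cells were SL2, a line of male origin derived from embryos, which expressed a tagged protein that was collected with an antibody against FLAG: SXL in 2 libraries, its relative SSX in 3, and green fluorescent protein (GFP) in 2. An input control of the same cells was not analysed here. All groups shared the male line and the kind of tag, and the proteins were expressed from introduced constructs.

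Sex-lethal (SXL) is the switch protein of female sex determination in the fly. It binds runs of uridine in RNA, changes splicing of its own and other transcripts, and represses translation of msl-2, so that females do not assemble the dosage compensation complex, which raises transcription of the single male X chromosome. Sister of Sex-lethal (SSX) is its paralogue, with similar RNA-binding domains, and is made in both sexes. The X-linked genes described here are those whose RNA was recovered with one or both proteins, and the comparison between the proteins asks how much of it came with SXL relative to SSX.

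Nearly all of the set came from the SSX list. The SXL list held 64 of the 268 genes and the SSX list 267, with 63 in both, 204 in the SSX list alone and CG32579 alone in the SXL list alone. The rules of the lists were passed by 2.78% of the 7170 genes tested for SXL over GFP and by 10.5% of the 9034 tested for SSX over GFP. These shares are background to a choice already made and nothing is read from them. Among 516 autosomal coding genes on the lists that passed the same count filters, 108 were in the SXL list. As a description of what was chosen, the deposited log2 over GFP had a median of 1.62 for SXL (range 0.28 to 3.40) and of 2.91 for SSX (range 1.91 to 4.90). At an adjusted p under 0.05, without the fold requirement, 231 of the 268 genes were higher with SXL than with GFP. So were 450 of the 516 autosomal genes chosen the same way, and 16.4% of all genes tested in that comparison. Choosing genes over the same GFP libraries favours a high share, so nothing particular to the X-linked genes is read from it. CG15743 and CG42699 stood just inside the count minimum with mean normalized counts of 101 and 102, and amn and ogre just outside with 98.2 and 94.2. Pvf1 and IP3K2 were just inside the SXL list at a deposited log2 of 2.00 and 2.01, while l(1)G0469 and mew, at 3.14 and 2.64, were outside it because their adjusted p was 0.00106 and 0.00256.

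Reads on the set and size factors differed between the groups. Reads on a set chosen mostly through SSX do not measure sequencing depth. The set held 583472 and 682093 reads in the SXL libraries, 789812, 1015322 and 1046233 in the SSX libraries, and 5045 and 6931 in the GFP libraries. By the authors' normalization, the size factors lay between 3.33 and 3.59 in SXL libraries, between 1.87 and 2.15 in SSX libraries, and at 0.0886 and 0.120 in GFP libraries. The median gene of the set had 28.5 GFP reads over both libraries, which limits how precisely any fold over GFP is known. Of 13 markers of SL2 cells only srp and msl-2 were on the lists, and of the markers of other cell types 1 of 4 for neurons and none of 3 for germline, 3 for muscle and 2 for epithelium. Unlisted genes carried no name here, so their deposited values were not looked up, and absence from the lists does not show absence from the cells. In these bulk precipitates, more RNA bound per transcript, more transcript per cell and a larger share of cells making it cannot be told apart.

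**Figure D1:**
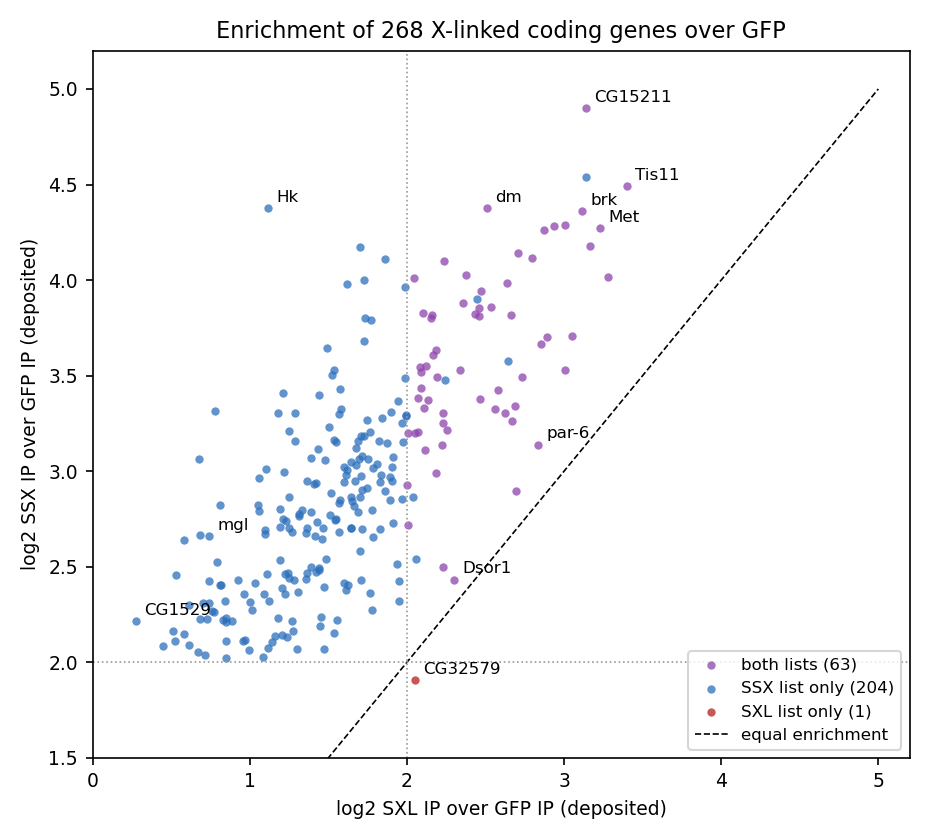
Deposited log2 over GFP for SXL (x axis) and SSX (y axis), 1 point for each of the 268 genes, coloured by list, with dotted lines at the list threshold of 2 and a dashed line of equal enrichment. All points but CG32579 lie above the dashed line, and Hk stands apart at 1.11 for SXL and 4.38 for SSX.

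Recovery with SXL was lower than with SSX for most of these genes under the authors' scaling. The deposited log2 SXL over SSX had a median of -1.32, with quartiles of -1.53 and -1.06 and a range of -3.26 to 0.15. In the deposited table of the authors, 255 of 268 genes were lower with SXL at an adjusted p under 0.05, 0 were higher with SXL, and 13 were not called. At an unadjusted p under 0.05, 0 were higher with SXL as well, and edgeR and DESeq2 on the listed genes, with the deposited size factors, also gave 0, while TMM scaling in edgeR gave 31 higher and 48 lower. Since 267 of them had been chosen for enrichment with SSX, and 64 for enrichment with SXL, this direction was favoured by the choice. Of all 9500 genes tested, 25.9% were lower and 11.5% higher with SXL than with SSX, and of the 2881 whose normalized counts averaged 100 or more, 50.1% were lower with SXL. All 3 SSX libraries stood above both SXL libraries for 260 of the 268 genes, against 94.6% of all 956 listed genes, and the reverse was seen for 0. The 63 genes in both lists had a median of -1.19 with 57 of 63 lower with SXL. Each had passed the SSX thresholds as well as those for SXL, so the choice bears on them too.

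Another scaling of the SXL and SSX libraries changed the sign of many of these values. Scaling the counts to the 956 listed genes with the trimmed mean of M values (TMM, a method of edgeR that assumes most genes do not differ) gave a median of -0.055 for the set, with 150 genes below 0 and 118 above. Of those 956 genes, 947 were in the SSX list, and the deposited log2 SXL over SSX of all 956 had a median of -1.23. TMM over them centres on genes selected for enrichment, so a median near 0 was favoured and does not decide the sign. The 9500 genes tested had a deposited median of -0.23. The order of the genes hardly moved, with a Spearman correlation above 0.999 between the deposited and the TMM values. Differences among the genes are therefore given below relative to the median of the set, and the word lower always refers to the authors' scaling. The log2 ratio of a gene is its deposited log2 SXL over SSX.

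Autosomal genes under the same filters, with none left out by name, went the same way as the X-linked set, with medians of smaller size. The X-linked and autosomal medians were 1.62 and 1.52 for the deposited log2 SXL over GFP, 2.91 and 2.55 for SSX over GFP, and -1.32 and -1.12 for SXL over SSX. On the arms 2L, 2R, 3L and 3R the median SXL over SSX was -1.11, -1.13, -1.11 and -1.14. Their medians for SSX over GFP were 2.63, 2.39, 2.64 and 2.51. Of the 268 X-linked genes 95.1% were lower with SXL, and of the 516 autosomal genes 91.3%, with 3 higher and 42 not called. Of the reads on both groups of genes, the X-linked set took 30.5% and 30.4% in the SXL libraries, 31.9%, 34.4% and 34.2% in the SSX libraries, and 29.2% and 29.7% in the GFP libraries. The share was thus higher in each of the 3 SSX libraries than in the SXL and GFP libraries. Both groups of genes were selected on these same libraries, so the difference is given without a test.

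**Figure D2:**
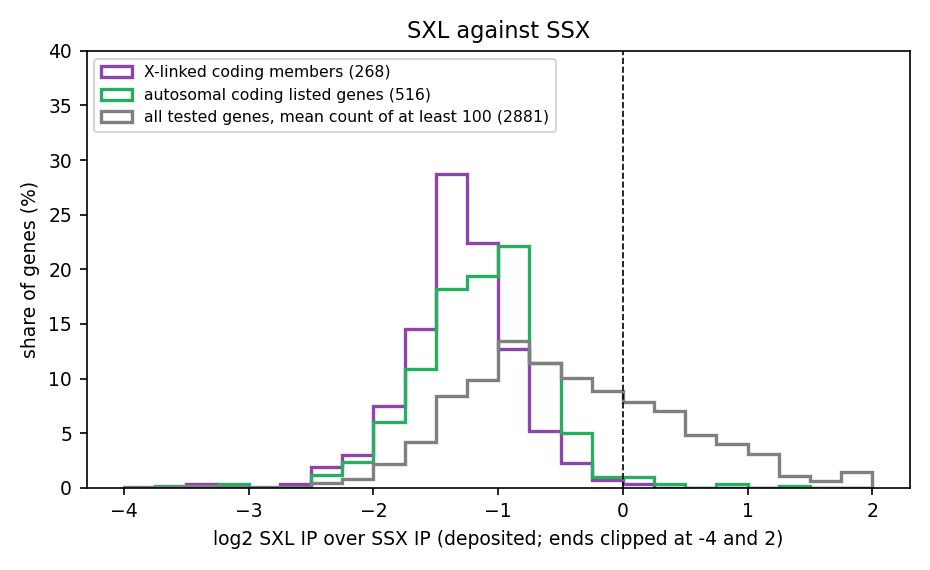
Share of genes (y axis, percent) by deposited log2 SXL over SSX (x axis, bins of 0.25) for the 268 X-linked genes, 516 autosomal coding genes chosen the same way and 2881 tested genes whose normalized counts averaged 100 or more. The X-linked and autosomal medians are -1.32 and -1.12, and both groups lie left of most tested genes under the authors' scaling. TMM, which centres on the listed genes, puts 118 of the 268 above 0.

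Hk (FBgn0263220, X, 10233347 to 10263485), which encodes the beta subunit of the Shaker potassium channel, had the lowest SXL over SSX of the set. Its normalized counts were 91.6 and 92.9 with SXL, 864, 825 and 999 with SSX, and 33.9 and 41.5 with GFP, and the SXL libraries stood closer to GFP than to any SSX library. The deposited log2 SXL over SSX was -3.26 (SE 0.19, adjusted p = 4.00e-63), with 1.11 for SXL over GFP and 4.38 for SSX over GFP. The potassium channel gene eag showed the same order at a smaller size. It had 149 and 149 with SXL, 469.8, 644 and 707 with SSX, and 90.3 and 74.7 with GFP, and a deposited log2 SXL over SSX of -2.01 (SE 0.24, adjusted p = 1.38e-15). The pair was grouped after their values had been seen.

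After Hk came CG8173, with 48.6 and 45.6 with SXL, 243, 208 and 393 with SSX, and 33.9 and 16.6 with GFP. Its deposited log2 was -2.54 (SE 0.32, adjusted p = 2.77e-13). CG2278, CG1575 and CG2258 followed at a deposited log2 SXL over SSX of -2.47 (SE 0.29), -2.39 (SE 0.20) and -2.36 (SE 0.27), and all lie close together on the chromosome, as described below. CG1575 had 72.1 and 73.7 with SXL, 419, 373 and 364 with SSX, and 11.3 and 66.4 with GFP, so that both SXL libraries stood only a little above the higher GFP library and every SSX library far above it. CG15784, with 468 and 580.3 with SXL, against 2114, 2766 and 2813 with SSX, and CHES-1-like, a forkhead transcription factor gene with 436 and 439 with SXL, against 1757, 2277 and 2263 with SSX, reached -2.27 and -2.25. CG10555 completed the 8 lowest at -2.20 (SE 0.32). In all 8 genes every SSX library lay above both SXL libraries, as in 260 of the 268 genes and 94.6% of all 956 listed genes. The log2 SXL over SSX of each stayed below 0 when any 1 SXL or SSX library was left out. These 8 were picked as the lowest from the same libraries, so both observations were favoured by the choice and are description only.

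At the other end, the 8 genes with the highest SXL over SSX were not called in either direction. CG32579 (FBgn0052579), the 1 gene of the SXL list alone, had 216 and 250.1 with SXL, 180.2, 255 and 195 with SSX, and 33.9 and 66.4 with GFP, with overlapping SXL and SSX libraries and a deposited log2 of 0.15 (SE 0.24, adjusted p = 0.676). Dsor1, which encodes the MEK kinase between Raf and MAP kinase, had 213 and 249.8 with SXL, 221, 279 and 262 with SSX, and 22.6 and 58.1 with GFP, again with overlap, and -0.14 (SE 0.22, adjusted p = 0.663). CalpC, a gene of the calpain family, had 272 and 315 with SXL, against 278, 433 and 346 with SSX and a deposited log2 of -0.26. For par-6, a scaffold of the apical polarity complex, the libraries did not overlap, with 859 and 952 with SXL, against 1022, 1226 and 1110.4 with SSX, but the difference of -0.31 missed the threshold (adjusted p = 0.182). CG6891 had the widest spread of the 8, with 1243 and 1748 with SXL, against 1668, 2490.1 and 993 with SSX. Its deposited log2 was -0.20, and in edgeR it turned to 0.03 without SXL replicate 2 and to 0.17 without SSX replicate 2, neither called (adjusted p = 0.946 and 0.590). Without SSX replicate 3 it became -0.48 (adjusted p = 0.0469).

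Nipsnap had -0.48 and the antiproliferative factor gene Tob had -0.48. In edgeR on the listed genes Nipsnap passed with all libraries (-0.48, adjusted p = 0.0473), and it also passed without SSX replicate 1 (-0.48, 0.0464) or SSX replicate 3 (-0.64, 0.00274). Tob missed the threshold there with all libraries and passed at -0.54 (adjusted p = 0.0306) without SSX replicate 1 and -0.56 (0.0318) without SSX replicate 2. Replicates are numbered here as the columns of the deposited lists are. Under the TMM scaling over listed genes all 8 lay above 0.

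**Figure D3:**
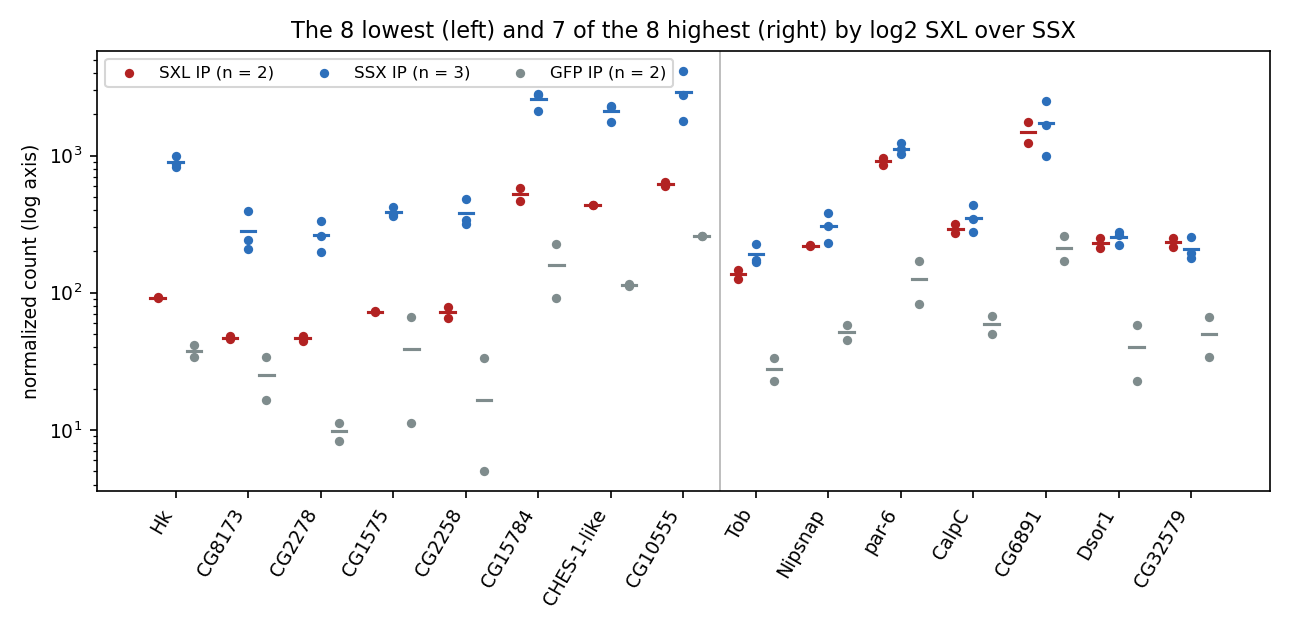
Normalized counts per library (log axis) of the 8 genes with the lowest (left) and 7 of the 8 with the highest (right) deposited log2 SXL over SSX, with SXL, SSX and GFP side by side and a bar at each group mean; a GFP library with no read is drawn at 5. In the 8 genes on the left the SXL points lie below all SSX points, as for 260 of all 268 genes. In 4 of the 7 on the right the SXL and SSX ranges overlap.

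The genes with most reads were led by pigs. This gene, a Gas2 family member that links actin and microtubules, had 3989 and 4463 with SXL, 9913, 15245 and 17286 with SSX, and 1512 and 1428 with GFP, and a deposited log2 SXL over SSX of -1.73. For mgl, which encodes the endocytic receptor Megalin, the counts were 3676 and 3642 with SXL, 11563, 13873 and 16358 with SSX, and 2246 and 2109 with GFP, with 0.74 for SXL over GFP against 2.66 for SSX over GFP, and its 453 GFP reads were the most of any gene of the set. The Myc gene dm had 3144 and 4250.4 with SXL, 9059, 14464 and 17445 with SSX, and 655 and 598 with GFP, and was in both lists with a deposited log2 SXL over SSX of -1.87. Imp, the fly's IGF2 mRNA-binding protein, had 3691 and 4026 with SXL, against 7307, 9705 and 11709 with SSX, a log2 ratio of -1.30. The kinase anchor gene spoon had 3460.2 and 3972 with SXL, against 6854, 10421 and 11443 with SSX, a log2 ratio of -1.36, and Hers, a repressor of histone genes, 2448 and 2663 with SXL, against 7588, 10119 and 11165 with SSX, a log2 ratio of -1.90. All 6 were lower with SXL by the authors' adjusted p, and dm, Imp and spoon were in both lists. A count rises with transcript length as well as abundance, so these counts do not order the genes by level.

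Some genes entered with very few GFP reads. CG13358 and l(1)G0469 had 1 GFP read each, Nrg, CG2278 and mew 2, and rap, upd3 and CG15643 3. The SSX over GFP ratio of l(1)G0469 was 53.6 with a 95% counting interval of 9.61 to 2120, and that of upd3, the gene of a JAK/STAT ligand, was 20.6 with an interval of 7.03 to 99.95. Such intervals cover counting error only. Over the set, the deposited log2 SSX over GFP lay below the log2 ratio of the group means of normalized counts by up to 0.98, with a median difference of 0.07. For SXL over SSX the median difference was -0.01.

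Functions were read from 10 lists, on which 102 of the 268 genes stood, while 166 were on none and 85 had no name beyond a CG number. No list had a gene that was higher with SXL under the authors' scaling. Under TMM over the listed genes every list had genes on both sides of 0, as given for each. TMM centres on those listed genes, so a side of 0 there places a gene among them and gives no direction between the proteins. Relative to the median of the set, the lists' medians lay within -0.12 and 0.18 on the log2 scale, which is narrower than the quartiles of the set itself. In the whole set 255 of 268 genes were lower with SXL, 64 were in the SXL list and 150 lay below 0 under TMM, and the counts of each list are to be set against these.

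Signalling was the largest group. Of 64 X-linked coding genes on the list of kinases, phosphatases and receptors, 34 were in the set, 32 of them lower with SXL, 9 in the SXL list and 18 below 0 under TMM, with a median SXL over SSX of -1.27. The SHP2 phosphatase csw had 1274 and 1365 with SXL, 2716, 3779 and 3470.3 with SSX, and 293 and 158 with GFP, and a deposited log2 SXL over SSX of -1.33. The GSK3 kinase sgg of the Wnt pathway had 1284 and 1378 with SXL, against 2649.9, 3292 and 3787 with SSX, a log2 ratio of -1.28. The signalling genes without a call were Dsor1 and par-6.

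Pathways within this group were assembled after the values had been seen and are given as description. In receptor tyrosine kinase and Ras signalling, 5 of 7 genes were in the SXL list, against 64 of 268 in the whole set: the ligand Pvf1, the adaptor Dok, csw, the GTPase Rala and Dsor1, while C3G, an exchange factor for the GTPase Rap1, and sl, phospholipase C gamma, were in the SSX list alone. Rala had 1049 and 1244 with SXL, 1921, 3047 and 3869 with SSX, and 147 and 133 with GFP, a log2 ratio of -1.35. Dok was lower with SXL at -0.91 (adjusted p = 0.00355), and missed the threshold in edgeR without SXL replicate 2 (-0.79, adjusted p = 0.0507). In JNK signalling the TNF receptor wgn, the adaptor Traf6, the kinases Tak1 and slpr, the ubiquitin-conjugating enzyme ben and the transcription factor Atf3 were all lower with SXL, 5 of the 6 also below 0 under TMM, with a median of -1.53. Atf3 had 596 and 613 with SXL, against 1778, 1868 and 2381 with SSX. For wgn the counts were 697 and 705 with SXL, against 1435, 2096 and 3022 with SSX. The BMP and activin genes differed in read number. brk, the repressor of Dpp targets, had 1528 and 1620.1 with SXL, 2995, 4738 and 3544 with SSX, and 169 and 174 with GFP. Its deposited log2 was 3.11 for SXL over GFP and 4.36 for SSX over GFP. The extracellular antagonist sog had only 78.1 and 106 with SXL, 169, 244 and 307 with SSX, and 11.3 and 33.2 with GFP. The log2 ratios of brk and sog were close, at -1.25 and -1.37, and cv was at -1.23. Smox, the Smad of the activin branch, was above the median of the set at -0.88, while the phosphatase gene Dd had 277 and 297 with SXL, against 866, 1053 and 1579.5 with SSX. For Wnt signalling, none of sgg, CkIalpha, fz4 and Wnt5 was in the SXL list, and all were lower with SXL, 2 of the 4 also below 0 under TMM.

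The calcineurin catalytic subunits CanA-14F and Pp2B-14D and their target NFAT were all in the set. NFAT had 3032 and 3401 with SXL, 5931, 9834 and 9642 with SSX, and 564 and 589 with GFP, a log2 ratio of -1.39. CanA-14F had 318 and 332 with SXL, against 434, 599 and 911 with SSX, a log2 ratio of -0.98, and Pp2B-14D 307 and 335 with SXL, against 392, 514 and 799.7 with SSX, a log2 ratio of -0.82 (adjusted p = 0.0231), which missed the threshold in edgeR without SXL replicate 2 (-0.76, adjusted p = 0.0518). The catalytic subunit Pp4-19C and the regulatory subunit PPP4R2r of protein phosphatase 4 were at -1.05 and -0.71; PPP4R2r also missed it without SXL replicate 2 (-0.66, adjusted p = 0.0949). Of the phospholipid genes known from phototransduction, norpA (phospholipase C beta) and inaE (diacylglycerol lipase) were in both lists and rdgA (diacylglycerol kinase) and rdgB (a phosphatidylinositol transfer protein) in the SSX list alone. norpA had 870.2 and 882 with SXL, 1581, 2354 and 2795 with SSX, and 135 and 249 with GFP, a log2 ratio of -1.34, and inaE 728 and 821 with SXL, against 1030.0, 1521 and 1537 with SSX, a log2 ratio of -0.81, with -0.73 (adjusted p = 0.0688) in edgeR without SXL replicate 2. Cyclic nucleotide genes, the adenylate cyclase gene Ac13E and the phosphodiesterase genes Pde9 and dnc, were at -1.61, -1.33 and -0.76.

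Of 45 X-linked genes on the transcription list, 18 were in the set, all lower with SXL, 7 in the SXL list and 12 below 0 under TMM, with a median of -1.42. The list's members with most reads were pigs, dm, fs(1)h and tlk, of which pigs is better known as a cytoskeletal linker. The bromodomain gene fs(1)h had 2309 and 2302 with SXL, against 4672, 7127 and 6619.7 with SSX, a log2 ratio of -1.40, and the Tousled-like kinase gene tlk 1744 and 1831 with SXL, against 3851, 5463 and 5553 with SSX, a log2 ratio of -1.46. Mnt, the antagonist of Myc for their shared partner, had 827 and 889.6 with SXL, 1686, 2744 and 2605 with SSX, and 102 and 141 with GFP, and was like dm in both lists. Of 4 hormone receptor and response genes, grouped later, 3 were in the SXL list, against 64 of 268, and 1 of the 4 lay below 0 under TMM, against 150 of 268. Met, one of the juvenile hormone receptors, had 273 and 297 with SXL, 458, 664 and 642 with SSX, and 22.6 and 24.9 with GFP, with an SXL over GFP (3.23) below those of Tis11 and CG13358 alone, though from 5 GFP reads. The other receptor, gce, had 550.1 and 562 with SXL, against 1089, 1633 and 1838 with SSX and was in the SSX list alone. usp, the RXR partner of the ecdysone receptor, had 696 and 797 with SXL, against 961, 1288 and 1334 with SSX, a log2 ratio of -0.68, with -0.58 (adjusted p = 0.139) in edgeR without SXL replicate 2. The ecdysone-responsive gene br had 483 and 587 with SXL, against 962, 1413 and 1205 with SSX, a log2 ratio of -1.15.

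Chromatin genes were 8 of 20 on their list, all lower with SXL, 7 below 0 under TMM and 2 in the SXL list, with the lowest median of the 10 lists at -1.43. Dsp1, an HMGB protein, had 2046 and 1969 with SXL, 3217, 5451 and 6067 with SSX, and 305 and 174 with GFP, and a deposited log2 of 3.01 for SXL over GFP and 4.29 for SSX over GFP. CoRest, a corepressor subunit, had 723 and 740.0 with SXL, against 1492, 2339 and 1935 with SSX. Among histone methylation and deacetylation genes, grouped later, HDAC4 had 1240.5 and 1293 with SXL, against 3847, 5104 and 5959.7 with SSX, a log2 ratio of -1.96, while the H3K9 methyltransferase gene G9a was at -1.25 and the H4K20 methyltransferase gene Hmt4-20 at -1.62; none of the 4 was in the SXL list.

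RNA-binding genes were 7 of 26 on the list, 6 of them lower with SXL, 4 below 0 under TMM and 4 in the SXL list, with a median of -1.32. Tis11 (FBgn0011837, X, 12659415 to 12682554), which encodes a zinc finger protein that binds AU-rich elements, had the highest SXL over GFP of the set at 3.40. Its counts were 2159 and 2592 with SXL, 3557, 5268 and 6442 with SSX, and 226 and 199 with GFP, with 4.49 for SSX over GFP and -1.09 for SXL over SSX. Rbp2 had 772 and 878 with SXL, against 1586, 1892 and 2745 with SSX. The counts of bif, a cytoskeletal protein gene carried on this list, were 1949.8 and 1873 with SXL, against 3935, 5644 and 5878 with SSX. nonA, of the family of paraspeckle proteins, had 477 and 524 with SXL, against 1076, 1728 and 1998 with SSX, a log2 ratio of -1.66. sbr, the mRNA export receptor, was nearest to equal among the called RNA-binding genes at -0.59 (adjusted p = 0.00947). It missed the threshold in edgeR without SXL replicate 2 (-0.63, adjusted p = 0.114), SXL replicate 3 (-0.57, 0.145) or SSX replicate 2 (-0.47, 0.0935). In a wider group of 12 mRNA regulators, assembled later, 10 were lower with SXL, 4 were below 0 under TMM, 6 were in the SXL list and the median was -1.10. It includes the RNA-editing enzyme Adar, whose deposited log2 SXL over SSX of -0.52 was not called (adjusted p = 0.0857) while edgeR and DESeq2 on the listed genes gave adjusted p-values of 0.0286 and 0.0423. Adar also passed in edgeR without SSX replicate 1 (-0.68, adjusted p = 0.00230) or SSX replicate 3 (-0.54, 0.0111). Its span lies within that of CG42666, on the same strand and also in the set at -1.22, so reads there may belong to either.

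Cytoskeleton and polarity genes were 17 of 45, of which 16 were lower with SXL, 12 were below 0 under TMM and 3 were in the SXL list, with a median of -1.42. dlg1, the membrane scaffold Discs large, had 1401 and 1499 with SXL, against 2934, 4342 and 5388 with SSX, a log2 ratio of -1.53. The signalling adaptor gene spri had 1242 and 1302 with SXL, against 2434, 3664 and 3926 with SSX, a log2 ratio of -1.38. Of the polarity genes, par-6 alone was not called, and baz (Par3), Cdc42, sdt (a partner of Crumbs) and dlg1 lay between -1.53 and -1.17. Adhesion genes were 9 of 27, all lower with SXL, 4 below 0 under TMM and 3 in the SXL list, with the highest median of the lists at -1.14. The integrin beta subunit mys had 2432 and 2677 with SXL, 4659, 6207 and 6028 with SSX, and 655 and 548 with GFP, a log2 ratio of -1.14. The alpha subunit mew had 85.0 and 96.5 with SXL, against 162, 197 and 164 with SSX, a log2 ratio of -0.94, but 2 GFP reads in all. fog, a secreted signal for cell shape change in gastrulation, had 432 and 441 with SXL, against 1205, 2053 and 1980.1 with SSX, a log2 ratio of -1.98, and lies with mgl at the low end of this list.

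Membrane traffic and nuclear transport genes were 13 of 52, all lower with SXL, 7 below 0 under TMM and 2 in the SXL list, with a median of -1.38. The nuclear transport GTPase gene Ran had 1274 and 1505 with SXL, 3835, 5682 and 7169.6 with SSX, and 846 and 863 with GFP, with a small SXL over GFP of 0.69 against 2.67 for SSX over GFP. Rip11, a Rab11 effector, was in both lists with 1605 and 1831 with SXL, against 2357, 3733 and 3675 with SSX, a log2 ratio of -0.92, and the nucleoporin gene Nup153 had 1319 and 1479 with SXL, against 2395, 3188 and 3452 with SSX. Metabolism and transport genes were 9 of 46, 8 of them lower with SXL, 4 below 0 under TMM and 2 in the SXL list, with a median of -1.20. Gclc, the catalytic subunit of the enzyme that starts glutathione synthesis, had 423 and 495 with SXL, against 1666, 1564 and 2399 with SSX, a log2 ratio of -2.02. The purine synthesis gene ade5 had 836 and 669 with SXL, against 1160.4, 1515 and 917 with SSX, a log2 ratio of -0.67 (adjusted p = 0.0244), and missed the threshold in edgeR without SXL replicate 3 (-0.52, 0.182) or SSX replicate 2 (-0.47, 0.102). GstT4, a glutathione transferase gene, overlapped between groups with 1039.6 and 959 with SXL, against 1630.2, 1989.6 and 924 with SSX and was not called at -0.59. In edgeR on the listed genes it passed (adjusted p = 0.0183), and also without SSX replicate 1 (-0.54, adjusted p = 0.0390) or SSX replicate 3 (-0.86, adjusted p = 0.000348). The copper transport genes ATP7 and Ctr1A were at -1.57 and -1.16.

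Ubiquitin and folding genes were 7 of 17, all lower with SXL, 5 below 0 under TMM and 1 in the SXL list, with a median of -1.32. Among them SkpA, a core subunit of SCF ubiquitin ligases, had 749 and 739 with SXL, against 1353, 1723 and 1755 with SSX. The mitochondrial chaperone gene Hsp60 had 621 and 687 with SXL, against 1407, 1617 and 1915 with SSX, and ben had 615 and 603 with SXL, against 1459, 1978 and 2478 with SSX. CG14619 was at -0.75, with -0.70 (adjusted p = 0.0778) in edgeR without SXL replicate 2. Replication and division genes were 6 of 25, all lower with SXL, 4 below 0 under TMM and 1 in the SXL list, with a median of -1.34. The topoisomerase gene Top1 had 1138 and 1151 with SXL, against 2246, 2917 and 3643 with SSX, and the spindle gene mud had 689.8 and 677 with SXL, against 1079, 1743 and 1763 with SSX. Klp10A, a kinesin gene, had 983 and 1107 with SXL, against 2516, 3300.0 and 3677 with SSX, and Cdc42, a small GTPase gene of cell polarity, had 1011 and 1041 with SXL, against 1783, 2429.8 and 3039 with SSX.

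**Figure D4:**
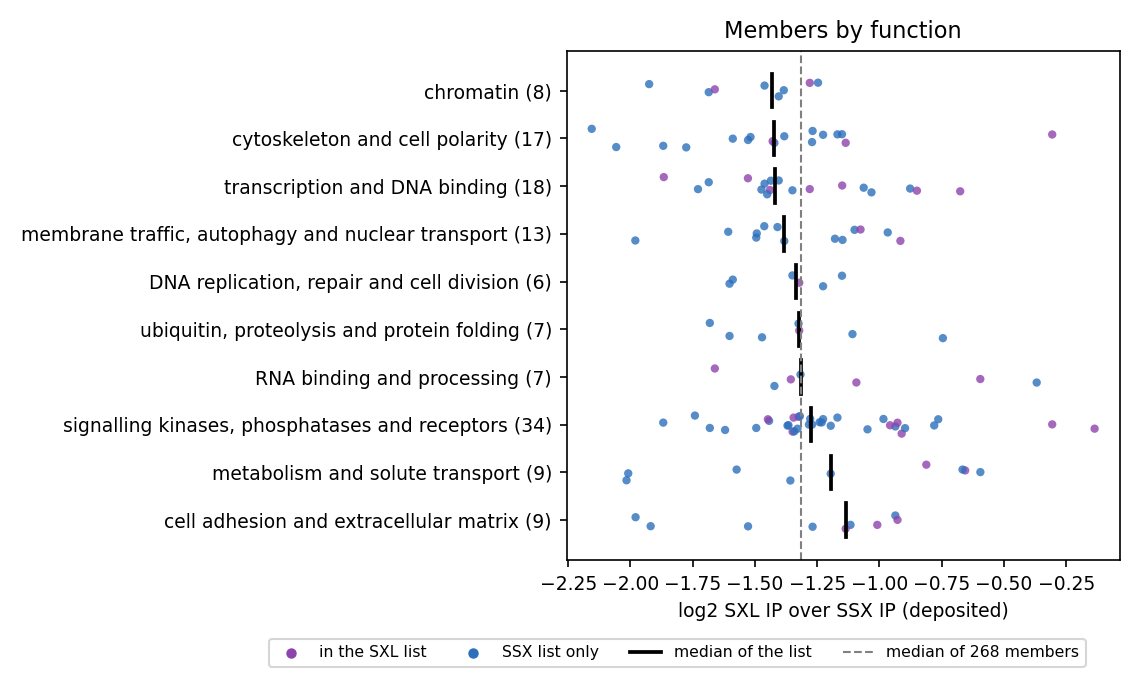
Deposited log2 SXL over SSX (x axis) of the genes on each of 10 functional lists (number of genes in brackets), with the list's median as a black bar and the median of all 268 genes as a dashed line; colours give the list of origin. The lists' medians lie between -1.43 for chromatin and -1.14 for adhesion. The genes of each list spread more widely than the medians do. Under TMM, which centres on the listed genes, every list holds genes on both sides of 0.

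Length was taken as the span of the gene from start to end, introns included. The set had a median span of 8592 bp, with quartiles of 4166 and 21414 bp and a range of 756 to 167328 bp. Autosomal genes chosen the same way had a median of 9072.5 bp. All 2197 X-linked coding genes of RefSeq had a median of 2520 bp. Spans of at least 10000 bp were found in 43.7% of the set, against 17.2% of RefSeq's X-linked coding genes, and spans of at least 30000 bp in 15.7%, against 5.69%. At the short end, 4.85% of the set spanned under 2000 bp, against 40.2% of those genes. The count minimum, which favours genes that collect many reads, is part of the choice, and its part in this difference was not tested.

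The longest genes were dnc at 167328 bp, mamo at 144412 bp, mgl at 141634 bp and rdgA at 122409 bp. dnc, the cyclic AMP phosphodiesterase of learning mutants, had 309 and 395 with SXL, 452, 595 and 755 with SSX, and 113 and 108 with GFP, a log2 ratio of -0.76 (adjusted p = 0.0134), and lost its call in edgeR without SXL replicate 2 (-0.60, adjusted p = 0.118). Its span overlaps 9 other RefSeq genes and that of rdgA 8, so reads within them may belong to either. mamo, a zinc finger gene, had 1389 and 1591 with SXL, against 2985, 4703 and 5446 with SSX, a log2 ratio of -1.54. rdgA had 266 and 319 with SXL, against 533, 904 and 850.5 with SSX, a log2 ratio of -1.37. The shortest were CG14818 at 756 bp, CG13358 at 1498 bp, opm, a p24 family cargo receptor gene, at 1597 bp and GlcAT-I, which makes the linker of proteoglycan chains, at 1623 bp. opm was lower with SXL at -0.96 with 97.3 and 99.9 with SXL, against 177, 178 and 224 with SSX. The other short genes were not called, at -0.49, -0.74 and -0.58, and in edgeR on the listed genes all passed (adjusted p = 0.0374, 0.00450 and 0.0216). In them SSX replicate 3 was the lowest or near the lowest SSX library, and without it the values were -0.78, -0.89 and -0.79 (adjusted p = 0.000263, 0.000140 and 0.000432). CG13358 was at -0.91 (adjusted p = 0.00389) without SSX replicate 1.

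Over the set, longer genes had slightly lower SXL over SSX. The Spearman correlation of span with the deposited log2 SXL over SSX was -0.185 across 268 genes, which share the same libraries and are not independent replicates, and -0.132 across the 516 autosomal genes. Span correlated with SSX over GFP at 0.272, with SXL over GFP at 0.118 and with the mean normalized count at 0.393. Across the autosomal genes these correlations were 0.032, -0.104 and 0.396. Split by span into short, middle and long groups of 89, 89 and 90 genes, the median SXL over SSX was -1.23, -1.26 and -1.39, and the median SSX over GFP 2.67, 2.85 and 3.07. The genes without a call were 10 in the short, 2 in the middle and 1 in the long group. The short group also had fewer reads, with a median mean count of 340, against 783 and 1054. The part of read number in the calls was not tested.

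**Figure D5:**
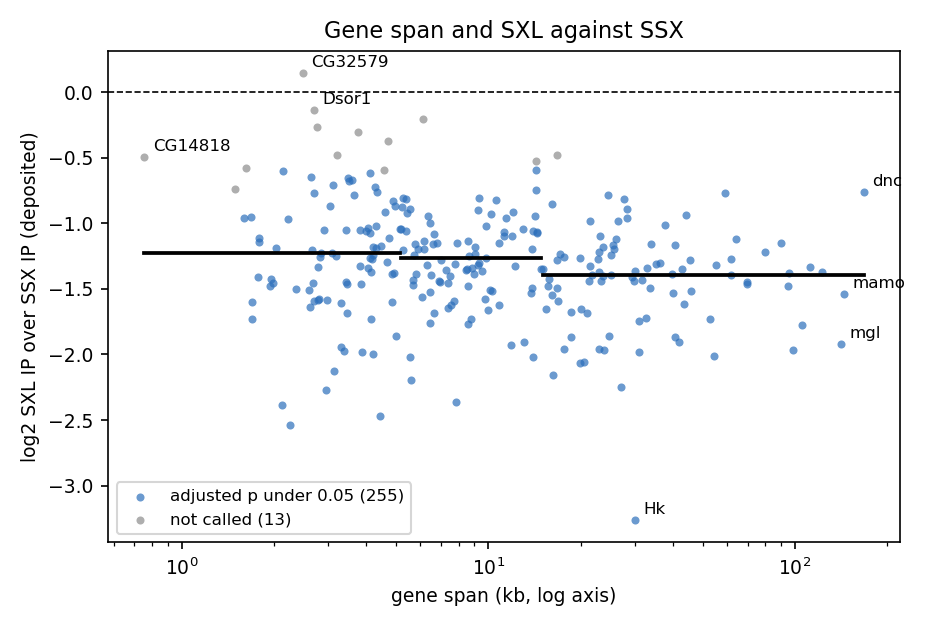
Deposited log2 SXL over SSX (y axis) against gene span in kb (log axis) for 268 genes, coloured by whether the authors' adjusted p was under 0.05; black bars mark the medians of the short, middle and long groups of genes. The bars lie at -1.23, -1.26 and -1.39, and 10 of the 13 genes without a call are in the short group.

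On the chromosome, all 268 genes matched a RefSeq gene on X, 266 of them with the same start, and 12.2% of RefSeq's X-linked coding genes were in the set. In windows of 2 Mb the share ranged from 6.78% (4 of 59, between 22 and 24 Mb) to 20.1% (35 of 174, between 12 and 14 Mb). It was 17.2% between 16 and 18 Mb and 16.2% between 8 and 10 Mb, but 6.99% between 14 and 16 Mb. The window medians of SXL over SSX lay between -1.47 (10 to 12 Mb) and -1.08 (20 to 22 Mb). Every window but the last held a gene of the SXL list. The stretches that follow were the 3 densest among 100 kb stretches with at least 4 genes of the set, and all such stretches together held 120 of the 268.

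The densest stretch (coordinates in build BDGP6) held 9 genes of the set among 25 RefSeq coding genes that start there. They include CG2258, Gclc, CG1575, Smox, Traf6, CG2278, slpr and sdt. Those below -2 were CG2258 (X, 8094250 to 8102095) at -2.36, Gclc (X, 8102181 to 8116147) at -2.02, CG1575 (X, 8117012 to 8119130) at -2.39 and CG2278 (X, 8165833 to 8170266) at -2.47. CG2258 had 65.5 and 79.0 with SXL, 315, 341 and 479 with SSX, and 0 and 33.2 with GFP, and CG2278 44.4 and 48.7 with SXL, 199, 258 and 334 with SSX, and 11.3 and 8.30 with GFP. The neighbours Smox at -0.88, Traf6 at -1.33, slpr at -1.45 and sdt at -1.27 were closer to or above the median of the set. CG2278 and slpr overlap at their ends on the same strand. slpr, a mixed-lineage kinase gene of the JNK pathway, had 728 and 720.5 with SXL, 1525, 2361 and 2081 with SSX, and 135 and 166 with GFP and was the only one of the 9 in both lists.

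The second stretch (X, 16323286 to 16438454) held 8 genes among 19: CG32579, CalpC, Dsp1, sl, nonA, CG4239, TH1 and hang. CG32579 (X, 16323286 to 16325768) and CalpC (X, 16325763 to 16328523) overlap at their ends on the same strand and are both among the 8 genes of the set with the highest SXL over SSX. The other genes of this stretch were lower with SXL, from -1.20 for sl to -1.66 for nonA. TH1, a subunit of the negative elongation factor NELF, had 100.3 and 101 with SXL, 316, 329 and 298 with SSX, and 56.4 and 83.0 with GFP, with SXL libraries only a little above GFP. hang, a zinc finger gene known for ethanol tolerance, had 1279 and 1213 with SXL, against 2481, 3437 and 4561 with SSX.

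The third stretch (X, 16542124 to 16650309) held 7 genes among 16: CG9902, Arp2, Pp2B-14D, CanA-14F, Nup153, mbt and mthl1. All were lower with SXL, and 6 of the 7 were above the median of the set, from -1.27 for mbt, a p21-activated kinase gene, to -0.81 for mthl1, a gene of the Methuselah receptor family. Arp2, of the complex that nucleates branched actin, was the exception at -1.43 with 880.4 and 895 with SXL, 1748, 2352 and 3127 with SSX, and 192 and 208 with GFP. mthl1 had 259 and 336 with SXL, 401, 636 and 532 with SSX, and 56.4 and 16.6 with GFP, and was at -0.64 (adjusted p = 0.0974) in edgeR without SXL replicate 2. The calcineurin genes lie side by side here (Pp2B-14D at 16554627 to 16560016 and CanA-14F at 16560684 to 16587172), and Pp2B-14D was at -0.76 (adjusted p = 0.0518) without that library.

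Overlap with other genes was common. The spans of 126 of the 268 genes overlap another RefSeq gene, and 24 overlap another gene of the set. Some reads may belong to a partner where counting ignored strand, or where both genes lie on the same strand. Among the 142 genes that overlap none, 136 (95.8%) were lower with SXL and the median SXL over SSX was -1.35, while 94.4% were lower with SXL and the median was -1.26 among the overlapping genes. The overlap-free genes had a median span of 6332 bp and the others 13056 bp.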

How the data were processed

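RNA immunoprecipitation libraries from SL2 cells were used: 2 of SXL, 3 of SSX and 2 of GFP. Per the labels' protocols, ribosomal RNA was depleted and a stranded low-input kit was used. The submitters' processing notes name Trimmomatic, TopHat2, featureCounts, DESeq, DESeq2 and BDGP6, without roles or versions; whether counting used strand is not given in the sources used here. Per the file headers, the authors deposited 3 comparison tables of 17559 genes with a mean normalized count (signal), a log2 fold change with its error, a score, and raw and adjusted p-values, and 2 gene lists with read counts of each library. Factors per library were solved from the deposited counts and means, and normalized counts are counts divided by them; 14 other columns per library were not used.

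Results are the authors' deposited values at an adjusted p under 0.05. Counts existed for listed genes only, which were selected on the outcome, so edgeR 4.0.16 (quasi-likelihood) and DESeq2 1.42.0 in R 4.3.3, with the deposited size factors, show only how calls depend on libraries and settings. Both were tested on simulated data. Python 3.11.15, pandas 2.3.3, scipy 1.17.1 and matplotlib 3.10.9 did the rest. The members, lists and rules were chosen with earlier results of these data known. Named genes are the 8 highest and 8 lowest by SXL over SSX, the 6 with most reads, the 4 longest and shortest, the 4 with most reads on each list, those beside the count minimum and those of the 3 densest stretches. The 17 pathway groups were added after values were seen. Spans and neighbours come from the files and RefSeq's Release 6 plus ISO1 MT annotation, and no sequence was used here. A few genes that these rules name are not reported here. Nothing in the labels says that replicates were separate cultures, and the spread behind each p-value may be technical.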

Additional observations from a re-analysis of the deposited data

How the results depend on the processing

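The count of genes lower with SXL than with SSX (255 of 268) and their median log2 SXL over SSX (-1.32) depend on the scaling. In edgeR, TMM over the listed genes gave 48 lower and 31 higher with a median of -0.055, and equal totals over the listed genes gave 95 lower and 8 higher with a median of -0.29. Both scalings centre on genes selected for enrichment. Stricter filters left fewer genes to count: 157 of 160 were lower among genes averaging 500 or more normalized counts, and 136 of 142 among genes that overlap no other. With deposited size factors, 261 were lower in edgeR, with or without its filter on low counts, and 258 in DESeq2, 0 were higher, and the deposited calls were kept in full. An adjusted p of 0.01 gave 245, at least 10 GFP reads 211 of 219, and centring on all tested genes a median of -1.09. Leaving out 1 library gave 232 to 262 lower, 0 higher (0 to 0), and medians of -1.47 to -1.21; with 1 SXL library, that library is assumed to vary like the other groups. The SXL list held 47 of the set at a mean of at least 500 and 53 with at least 10 GFP reads, in place of 64. Among the genes named or grouped, 20 gained or lost a call or changed sign in fits with the deposited size factors. Under TMM 93 changed sign or lost the call (53 and 40), and under equal totals 76 (28 and 48). A call was gained by 9 under TMM and by 7 under equal totals, and these can also be among those that changed sign. CG6891 changed sign, to 0.03 without SXL replicate 2 and 0.17 without SSX replicate 2, and was -0.48 without SSX replicate 3. The other causes were not tested. Column numbers are not those of the sample titles, so they were not taken to pair the libraries. Same-numbered libraries correlated in their deviations from the group mean at r = -0.01 (column 2) and 0.20 (column 3) between SXL and SSX. Between SXL and GFP r was -0.03 in both columns, and between SSX and GFP 0.06 and 0.04. These values cannot decide on pairing, since in a group of 2 libraries the deviations mirror each other. With the column number as a replicate block, 262 were lower, 0 were higher, and the median was -1.46. The alternative length measure was not run, since the deposited length equals the span. The low number of GFP reads, with 5045 and 6931 on the set, limits every fold over GFP.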

Other observations

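Among the X-linked coding genes on the lists, 31 failed a count filter, 8 of them with no GFP read. CG10801 was the 1 gene among them above the count minimum. Its normalized counts were 25.5 and 18.6 with SXL, against 194, 246 and 279.7 with SSX and 0 in both GFP libraries, with a deposited log2 SXL over SSX of -3.40, lower than that of Hk. CG43921 had 10.2 and 12.2 with SXL, 146, 118 and 155 with SSX and 0 and 8.30 with GFP, at a deposited log2 SXL over SSX of -3.59 (adjusted p = 1.60e-27). CG15296 had 6.61 and 5.56 with SXL, 74.0, 98.3 and 126 with SSX and 0 in both GFP libraries. CG6048 had no SXL or GFP read, and 38.6, 20.6 and 41.2 with SSX. In each of these genes both SXL libraries lay below all 3 SSX libraries, as in 94.6% of all 956 listed genes. All of them were listed through SSX over GFP alone, so this order was favoured by the choice. CG8239 had 49.2 and 59.5 with SXL, 57.7, 72.6 and 82.4 with SSX and 0 in both GFP libraries, so its SXL and SSX libraries overlapped. These low counts were outside the set, and the genes were picked after their values were seen.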
